A study of Rattus norvegicus with 9 samples.

Results

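Genes of cell proliferation, 10 in all, were followed through kidney libraries of 3 groups labelled as rat. They were taken by a list of mouse Ensembl identifiers, and 10 of 10 were found among the 17862 features listed in every library. The list holds Mki67 (ENSMUSG00000031004), Top2a (ENSMUSG00000020914), Ccnb1 (ENSMUSG00000041431), Cdk1 (ENSMUSG00000019942), Ccna2 (ENSMUSG00000027715), Pcna (ENSMUSG00000027342), Birc5 (ENSMUSG00000017716), Aurkb (ENSMUSG00000020897), Rrm2 (ENSMUSG00000020649) and Ccnd1 (ENSMUSG00000070348). The symbols came with the list, since the deposited tables give identifiers only. Total RNA, depleted of ribosomal RNA, was sequenced from normal kidneys (WT), from kidneys with hypertension (Model), and from kidneys with hypertension and QDG, or Qingda granule, a Chinese herbal preparation (QDG). Each group had 3 samples, all at an age of 6 weeks. The labels state no strain, sex, cause of the hypertension, or dose and duration of the granule. They do not say either whether each sample is another animal, so the p-values describe the scatter of these 9 samples, part of which may be technical.

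Cells that divide pass from G1 through DNA synthesis (S phase) and G2 into mitosis. D-type cyclins act in G1 and release E2F transcription factors from the retinoblastoma protein, E2F then raises genes for DNA synthesis, and a later wave of mitotic genes is held off in resting cells by the DREAM complex, which binds promoters at CHR and E2F elements. In the kidney most tubule cells are quiescent after the postnatal growth of the nephron, and cycling increases during growth and repair.

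The values are FPKM, that is, reads or fragments scaled by the length of the feature and by the size of the library. The steps between values allowed whole reads and feature lengths to be recovered, with implied totals of 26206894 to 31402487 reads per library and 99.98% of features solved. The identifiers are those of mouse genes while the labels give rat, so the values may also vary with how well sequences match between the species. Because no identifier outside the list was paired with a symbol, the labelled tissue and the content of other cell types were not checked against their markers. In whole tissue, fewer cells with a transcript and less of it per cell cannot be told apart. Nor can dividing and resting cells be told apart as its source.

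The 10 genes lay at very different levels. Ccnd1, which encodes the G1 cyclin D1, averaged 27.2 FPKM over the 9 libraries (SD 7.76), and Pcna, which encodes the sliding clamp of DNA polymerases that also serves in DNA repair, averaged 19.4 (SD 2.32). Both stood in the upper part of all listed features, above 89.7% and 86.2% of them. Rrm2, the small subunit of ribonucleotide reductase, which makes deoxynucleotides, stood at 1.85 FPKM (SD 0.279), above 42.7% of the features. The other 7 genes were scarce, with means between 0.132 and 0.392 FPKM, above only 7.07% to 18.9% of all listed features. No listed feature had a value of 0 in any library, so these shares are ranks among features detected in all 9 libraries.

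These 7 act in S phase, G2 or mitosis. In order of their mean level they were Ccna2 (cyclin A2, of S phase and G2) at 0.392 FPKM, Mki67 (the Ki-67 antigen, which coats mitotic chromosomes) at 0.314, Cdk1 (the mitotic kinase) at 0.296, Birc5 (survivin) at 0.252, Top2a (topoisomerase II alpha, which untangles replicated DNA) at 0.235, Aurkb (Aurora kinase B) at 0.172 and Ccnb1 (cyclin B1, the partner of Cdk1) at 0.132. Their order was not firm. From Mki67 down to Ccnb1, each gene exceeded the next in 6 or 7 of the 9 libraries, whereas Ccna2 exceeded Mki67 in 9 of 9. Ccnd1 exceeded Pcna in 7 of 9 libraries, and in Model the group means were in the opposite order, 20.2 FPKM for Ccnd1 and 20.4 for Pcna.

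The scarce genes rested on few reads. Ccnd1 held 2612 to 5847 reads per library, Pcna 1130 to 1526 and Rrm2 111 to 204. Mki67, whose feature is 10061 bases long, held 47 to 127 reads and Top2a, with 9013 bases, 22 to 103. Aurkb held 5 to 23 reads and Ccnb1 7 to 27, and the 5 reads of Aurkb in WT 1 have a 95% Poisson interval of 1.62 to 11.7 reads, which covers counting error only. Averaged over the groups, the variance of the scaled reads within a group was 1.63 times their mean for Aurkb, 5.25 times for Mki67, 6.21 times for Top2a and 67.1 times for Ccnd1, where counting error alone gives about 1. At an equal relative scatter this ratio rises with the number of reads, so it does not rank genes of unlike level by their scatter. Pcna and Ccnb1 have processed pseudogene copies in rodents, and the sources used here do not say how reads were divided between such copies.

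**Figure D1:**
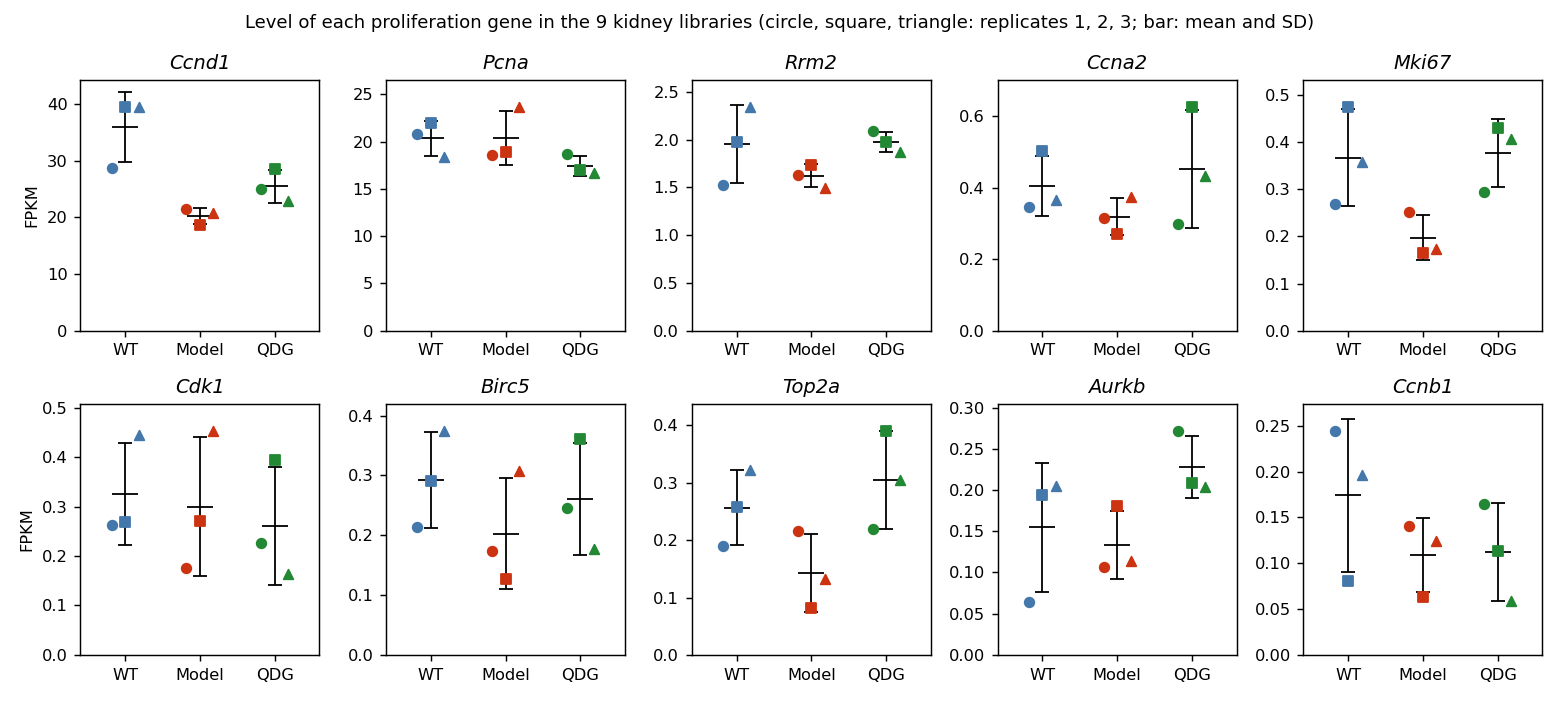
Level of each gene in FPKM (vertical axes, linear from 0, each gene on its own scale) in the 3 WT, 3 Model and 3 QDG libraries, with the group mean and SD as bars and circles, squares and triangles for replicates 1, 2 and 3. Ccnd1 is the gene with the clearest separation, with Model at 18.6 to 21.4 FPKM below WT at 28.8 to 39.5.

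RefSeq promoters of the rat assembly GRCr8, from 250 bases before to 50 bases after the start of the gene, were at hand for 6 of the 10 genes. Those of Mki67 and Top2a are shown because these scarce genes had the largest differences between groups, and those of Cdk1 and Ccnb1 because these genes, which encode a kinase and its cyclin, had overlapping groups in every comparison. They lie at chr1:199952544-199952843 (minus strand, Mki67), chr10:84473044-84473343 (minus strand, Top2a), chr20:19265043-19265342 (plus strand, Cdk1) and chr2:33655176-33655475 (minus strand, Ccnb1). Each is written 5′ to 3′ on the strand of its gene, and capitals mark TTTGAA, a form of the CHR element, and CCAAT, the NF-Y box, on either strand.
Mki67: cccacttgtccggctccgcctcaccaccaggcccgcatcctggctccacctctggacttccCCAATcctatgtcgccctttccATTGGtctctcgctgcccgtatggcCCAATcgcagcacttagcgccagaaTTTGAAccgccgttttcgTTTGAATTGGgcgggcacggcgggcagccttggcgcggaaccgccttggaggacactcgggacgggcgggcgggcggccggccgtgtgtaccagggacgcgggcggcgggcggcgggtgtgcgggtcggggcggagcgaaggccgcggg
Top2a: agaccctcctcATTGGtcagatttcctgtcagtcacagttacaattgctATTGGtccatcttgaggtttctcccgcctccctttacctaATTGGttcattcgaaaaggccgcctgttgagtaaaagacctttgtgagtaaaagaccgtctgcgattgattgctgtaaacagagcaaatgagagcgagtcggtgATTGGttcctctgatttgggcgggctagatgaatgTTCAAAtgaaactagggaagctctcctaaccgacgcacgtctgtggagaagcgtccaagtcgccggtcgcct
Cdk1: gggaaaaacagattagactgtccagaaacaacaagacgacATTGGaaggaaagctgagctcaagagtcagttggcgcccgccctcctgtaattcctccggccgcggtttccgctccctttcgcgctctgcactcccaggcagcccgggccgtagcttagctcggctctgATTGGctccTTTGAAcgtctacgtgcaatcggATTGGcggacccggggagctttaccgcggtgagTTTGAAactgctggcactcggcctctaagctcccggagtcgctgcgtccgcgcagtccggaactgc
Ccnb1: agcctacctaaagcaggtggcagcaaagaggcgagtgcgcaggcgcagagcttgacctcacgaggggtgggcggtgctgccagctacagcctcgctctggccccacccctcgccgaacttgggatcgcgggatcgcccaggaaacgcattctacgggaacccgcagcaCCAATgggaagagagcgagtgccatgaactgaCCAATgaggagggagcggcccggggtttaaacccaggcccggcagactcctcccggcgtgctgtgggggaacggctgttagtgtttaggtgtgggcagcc

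TTTGAA occurred in the windows of 4 of the 6 genes (Mki67, Top2a, Cdk1 and Birc5) and in 18.3% of 33469 rat promoters of this length. Counted from the start of the gene, its first base stood at −117 and −99 in Mki67, at −22 in Top2a (minus strand), at −72 and −16 in Cdk1, and at −8 in Birc5. CCAAT occurred in all 6 windows and in 37.5% of all promoters. Mki67 and Top2a held 4 copies each, Cdk1 3, Ccnb1 2, and Birc5 and Pcna 1 each. Birc5 and Pcna, like Cdk1 and Ccnb1, had overlapping groups in every comparison. Whether the number of copies goes with the group differences was not tested. In Mki67 a CCAAT box on the minus strand shares 1 base with the TTTGAA before it, and no other matches overlap. The E2F forms TTTCCCGC and TTTGGCGC, found in 0.974% and 0.493% of all promoters, were in 0 of the 6 windows. Other forms of the CHR and E2F elements were not searched for, so a window without a match may still hold such an element. The matches describe letters in a window of the rat genome, and no binding was measured.

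The comparison of Model with WT asks which of these genes differ in the hypertensive kidney. Ccnd1 was lower in Model. Neither of the other genes abundant enough for the main test, Pcna and Rrm2, passed it, and the 7 scarce genes were below its limit of a mean of 1 FPKM. A test on recovered reads of all features, chosen after seeing the data, covered all 10 genes and again called only Ccnd1. In that test Mki67 and Top2a had estimates as large as that of Ccnd1 without passing.

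Among G1 genes, Ccnd1 was measured at 28.8, 39.5 and 39.5 FPKM in WT 1, 2 and 3, and at 21.4, 18.6 and 20.7 FPKM in Model 1, 2 and 3. All Model libraries lay below all WT libraries, and WT 1 was the lowest of the normal kidneys. Group means were 35.9 ± 6.20 FPKM (SD, n = 3) in WT and 20.2 ± 1.49 in Model, so that the Model level was 0.563 of the WT level. On the log2(FPKM + 1) scale the difference was −0.79 (SE 0.14; 95% interval −1.10 to −0.47; limma adjusted p = 0.0165). Across all 12187 features tested, 7.90% were called in this comparison and 1.90% were called lower. Ccnd1 was the 1 member called among the 3 tested.

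The call for Ccnd1 was close to the threshold under some settings. It was lost when only WT and Model were fitted (limma adjusted p = 0.0526), without WT 2 (limma adjusted p = 0.0524) and without Model 3 (limma adjusted p = 0.0515). Over all 33 alternatives, of FPKM or of recovered reads, the log2 difference stayed negative, between −0.98 and −0.71. Of these 30 called it (limma or limma voom, adjusted p from 0.00802 to 0.0526). With recovered reads the difference was −0.83 (SE 0.14; limma voom adjusted p = 0.0113), and it passed without each library in turn. With each library's trend on feature length removed it was −0.79 (limma adjusted p = 0.0166).

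For DNA synthesis, Rrm2 stood at 1.53, 1.98 and 2.34 FPKM in WT and 1.63, 1.73 and 1.49 in Model. The Model libraries overlapped the lower part of the WT range. Its log2(FPKM + 1) difference was −0.16 with an SE of 0.12 (95% interval −0.42 to 0.09; limma adjusted p = 0.380). Pcna stood at 20.8, 21.9 and 18.3 FPKM in WT and at 18.6, 18.9 and 23.7 in Model. The groups overlapped, with Model 3 above all WT libraries and WT 3 below all Model libraries, and their means were 20.4 ± 1.85 and 20.4 ± 2.87 FPKM (SD, n = 3). The interval of the log2(FPKM + 1) difference of Pcna ran from −0.27 to 0.26 (limma adjusted p = 0.991), so a change of Pcna as large as the estimate for Ccnd1 lay outside it.

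Among the scarce genes, Mki67 was measured at 0.269, 0.476 and 0.358 FPKM in WT (71, 126 and 113 reads) and at 0.252, 0.166 and 0.174 FPKM in Model (73, 50 and 47 reads). All Model libraries lay below all WT libraries, with Model 1 close under WT 1. The Model mean was 0.537 of the WT mean. In the test of recovered reads the log2 difference was −0.89 (SE 0.29; 95% interval −1.52 to −0.26), which did not pass after adjustment over 17858 features (limma voom adjusted p = 0.0907). On the log2(FPKM + 1) scale, which compresses such low values, the difference was −0.19.

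Top2a stood at 0.191, 0.257 and 0.322 FPKM in WT (45, 61 and 91 reads) and at 0.216, 0.0814 and 0.132 FPKM in Model (56, 22 and 32 reads). Model 1 lay above WT 1, and Model 2 was the lowest of all libraries. The log2 difference of reads was −0.94 (SE 0.38; 95% interval −1.77 to −0.11; limma voom adjusted p = 0.156). Without Model 2 it was −0.58 (limma voom adjusted p = 0.370).

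Feature length moved with these differences. Over the 1854 features of 9000 bases or more, the class of Mki67 and Top2a, the median log2 difference of reads was −0.23, against −0.02 over all features and 0.18 over the 1831 features under 1000 bases. With a pseudocount of 0.1 FPKM, no filter and the length trend of each library removed, the differences were −0.50 for Mki67 (limma adjusted p = 0.204) and −0.45 for Top2a (limma adjusted p = 0.337), where they were −0.64 and −0.57 before removal. Ccnd1, with 4709 bases, lies in a length class (3000 to 6000 bases) whose median was −0.02.

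The mitotic kinase and its cyclin showed no separation of the groups. Cdk1 stood at 0.263, 0.270 and 0.445 FPKM in WT and 0.176, 0.270 and 0.453 in Model, so that the highest value of all 9 libraries was in Model 3. Ccnb1 stood at 0.244, 0.0811 and 0.196 FPKM in WT and 0.140, 0.0632 and 0.124 in Model, on 8 to 27 reads. The log2 differences of reads were −0.22 for Cdk1 (95% interval −1.11 to 0.66; limma voom adjusted p = 0.778) and −0.62 for Ccnb1 (95% interval −1.76 to 0.52; limma voom adjusted p = 0.501). These intervals are wide and include changes of 2-fold or more downward.

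The S phase cyclin Ccna2 stood at 0.346, 0.503 and 0.367 FPKM in WT and 0.315, 0.269 and 0.374 in Model (log2 difference of reads −0.34, 95% interval −1.07 to 0.38; limma voom adjusted p = 0.568). Of the chromosomal passenger complex, which corrects the attachment of chromosomes to the spindle, Birc5 stood at 0.213, 0.291 and 0.374 FPKM in WT and 0.174, 0.127 and 0.307 in Model. Its kinase Aurkb stood at 0.0648, 0.194 and 0.205 FPKM in WT and 0.106, 0.181 and 0.114 in Model. The groups overlapped for all 3 genes, and the log2 differences of reads were −0.62 for Birc5 (limma voom adjusted p = 0.399) and −0.11 for Aurkb (limma voom adjusted p = 0.917).

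Counted together, 10 of 10 genes had a negative estimate in Model against WT in the test of reads, where 52.2% of all 17858 features did. That of Pcna was only −0.014. The 10 genes were chosen with earlier results of these data known, so such counts are descriptive and not an independent test. Leaving out single libraries turned the estimate positive for Pcna (4 of 9 fits), Aurkb (3 of 9) and Cdk1 (2 of 9). The median log2 difference of the 10 was −0.48, against −0.02 over all features. Of the 10 genes 1 was called, where 5.53% of all features were, and 3 (Mki67, Top2a and Ccnd1) had an unadjusted p under 0.05, where 24.2% did. The values of 2 genes, Mki67 and Ccnd1, lay lower in all Model libraries than in all WT libraries, where this held for 11.0% of all listed features. The counts of called genes, of genes with an unadjusted p under 0.05 and of genes without overlap were near their background.

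**Figure D2:**
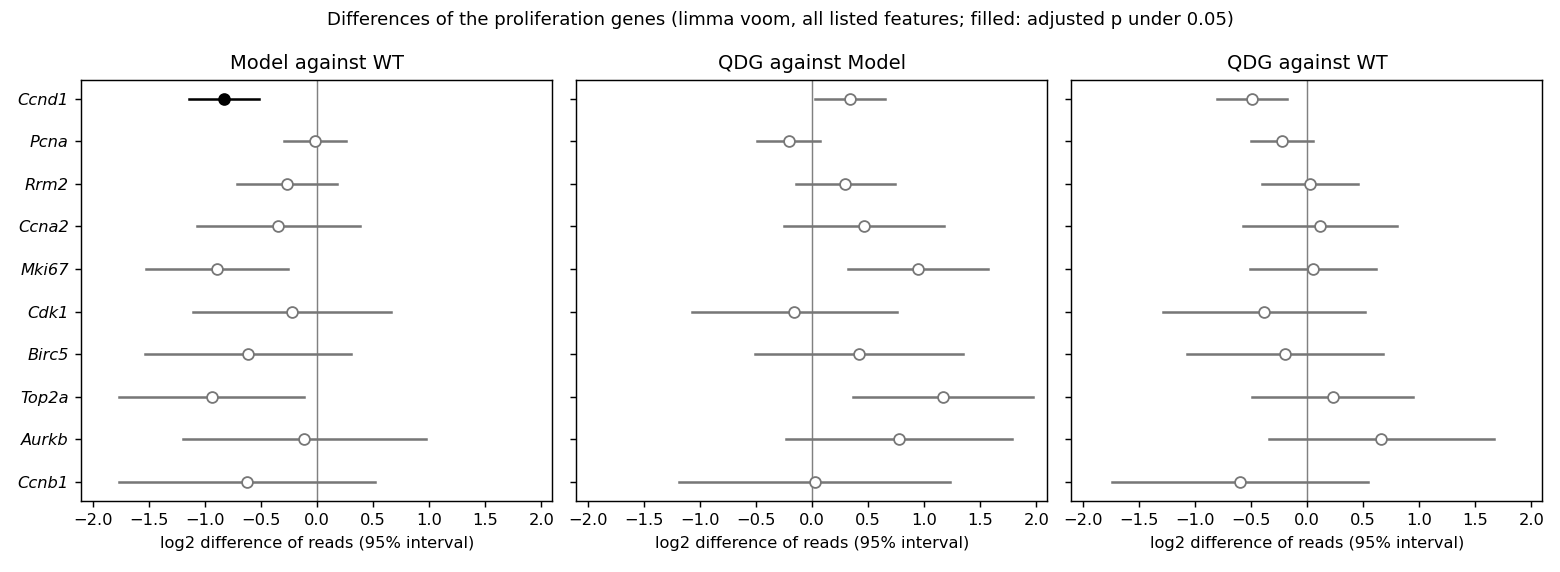
Log2 difference of recovered reads (horizontal axis) for each gene in each comparison, from limma voom on all listed features with TMM scaling. Points are estimates and lines 95% intervals before adjustment over features, and the filled point, Ccnd1 in Model against WT, is the 1 with an adjusted p under 0.05.

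The comparison of QDG with Model asks which genes differ under the granule. No member passed. The main test called 0 of the 3 genes above its limit and 0 of 12187 features, and 0 of the 3 had an unadjusted p under 0.05, where 13.9% of features did (limma). The test of reads also called 0 of 10 genes and 0 of 17858 features (limma voom). In it 3 of the 10 genes, Mki67, Top2a and Ccnd1, had an unadjusted p under 0.05, where 12.8% of all features did. These are the 3 genes with the largest differences between Model and WT. Both comparisons share the Model libraries, so that a low value in Model enters both.

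Mki67 stood at 0.294, 0.431 and 0.407 FPKM in QDG 1, 2 and 3 (85, 127 and 116 reads), above all Model libraries. The QDG mean of 0.377 ± 0.0733 FPKM (SD, n = 3) was 1.91 times the Model mean of 0.197 ± 0.0477. The log2 difference of reads was 0.94 (SE 0.29; 95% interval 0.32 to 1.57; limma voom adjusted p = 0.326). Top2a stood at 0.220, 0.390 and 0.306 FPKM in QDG (57, 103 and 78 reads). These values also lay above all Model libraries, with QDG 1 only just above the 0.216 FPKM of Model 1. Its mean was 2.13 times the Model mean, with a log2 difference of reads of 1.17 and an SE of 0.37 (95% interval 0.36 to 1.97; limma voom adjusted p = 0.326). Features of 9000 bases or more had a median log2 difference of 0.19 here, and with a pseudocount of 0.1 FPKM, no filter and the length trend removed the differences were 0.55 for Mki67 and 0.63 for Top2a (limma adjusted p = 0.432 and 0.454), against 0.68 and 0.75 before removal.

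Ccnd1 stood at 25.1, 28.5 and 22.8 FPKM in QDG. All lay above the highest Model library, at 21.4 FPKM, and below the lowest WT library, at 28.8. The mean of 25.5 ± 2.87 FPKM (SD, n = 3) was 1.26 times that of Model, with a log2(FPKM + 1) difference of 0.32 and an SE of 0.14 (95% interval from just below 0 to 0.63; limma adjusted p = 0.360). Rrm2 stood at 2.08, 1.97 and 1.87 FPKM in QDG, above the 1.49 to 1.73 FPKM of Model (log2(FPKM + 1) difference 0.19, 95% interval −0.07 to 0.44; limma adjusted p = 0.492). Pcna stood at 18.6, 17.0 and 16.6 FPKM in QDG, and QDG 1 overlapped the lowest Model library (log2(FPKM + 1) difference −0.21, 95% interval −0.48 to 0.06; limma adjusted p = 0.457).

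Of the mitotic genes, Aurkb stood at 0.272, 0.209 and 0.204 FPKM in QDG (23, 18 and 17 reads), above the 0.106 to 0.181 FPKM of Model (9 to 16 reads). Its log2 difference of reads was 0.78 (95% interval −0.23 to 1.79; limma voom adjusted p = 0.506). Its partner Birc5 stood at 0.245, 0.362 and 0.176 FPKM in QDG, overlapping Model, with a difference of 0.42 (limma voom adjusted p = 0.712). Ccna2 stood at 0.298, 0.628 and 0.432 FPKM in QDG, where QDG 2 was the highest of all 9 libraries and QDG 1 lay within the Model range (difference 0.46; limma voom adjusted p = 0.580). Cdk1 stood at 0.226, 0.395 and 0.165 FPKM and Ccnb1 at 0.165, 0.113 and 0.0586 FPKM in QDG. Both overlapped Model, with log2 differences of reads of −0.16 for Cdk1 and 0.02 for Ccnb1 (limma voom adjusted p = 0.906 and 0.989).

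In all, QDG lay above Model without overlap for 5 of 10 genes (Mki67, Top2a, Aurkb, Rrm2 and Ccnd1), where this held for 10.8% of all listed features, and below it without overlap for 0 of 10, where this held for 12.4%. The margin was narrow for Top2a (0.220 FPKM in QDG 1, 0.216 in Model 1) and Aurkb (17 reads in QDG 3, 16 in Model 2). The 10 genes share the same libraries, so they are not separate observations. Overlap was not counted with the length trend removed. The estimates in the test of reads were positive for 8 of 10 genes, where 52.9% of all features were positive. The exceptions were Pcna and Cdk1, and with a pseudocount of 0.1 FPKM, no filter and the length trend removed Ccnb1 was also negative. Leaving out single libraries turned Ccnb1 negative in 3 of 9 fits of reads and Cdk1 positive in 2 of 9. The median log2 difference of reads was 0.38, against 0.02 over all features. None of these differences passed the adjusted test, and these counts too describe genes chosen with earlier results known.

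The comparison of QDG with WT shows where the treated hypertensive kidney stood relative to the normal one. No member passed it, with 0 of 3 called in the main test (limma), where 2.47% of features were, and 0 of 10 in the test of reads (limma voom), where 2.14% were. Ccnd1 had an unadjusted p under 0.05 in both tests, alone among the members, where 21.3% of features did in the main test and 18.5% in the test of reads. Its QDG libraries lay below all WT libraries, as held for 11.3% of all listed features, although QDG 2 at 28.5 FPKM was only just under WT 1 at 28.8. The mean was 0.709 of that of WT, with a log2(FPKM + 1) difference of −0.47 and an SE of 0.14 (95% interval −0.79 to −0.15; limma adjusted p = 0.103). Over 33 alternatives, of FPKM or of recovered reads, the difference lay between −0.64 and −0.40. Of these 0 called it (limma or limma voom, adjusted p from 0.0623 to 0.289, both from fits of reads).

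For the other 9 genes QDG overlapped WT. Mki67 had group means of 0.377 FPKM in QDG and 0.368 in WT, and a log2 difference of reads of 0.05 (95% interval −0.51 to 0.62; limma voom adjusted p = 0.940). Top2a had means of 0.305 and 0.256 FPKM and a difference of 0.23 (95% interval −0.49 to 0.94; limma voom adjusted p = 0.759). Rrm2 had means of 1.98 and 1.95 FPKM and a log2(FPKM + 1) difference of 0.02 (95% interval −0.23 to 0.28; limma adjusted p = 0.936). Ccnb1 and Aurkb differed more in their estimates, by −0.60 and 0.66 in reads, on few reads and with intervals of −1.74 to 0.54 and −0.34 to 1.67 (limma voom adjusted p = 0.581 and 0.472). The estimates were positive for 5 genes and negative for 5, and with 1 library left out those of Mki67, Birc5, Ccna2 and Rrm2 changed sign in some fits. Their median was −0.09, against 0.00117 over all features.

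The libraries with the lowest and highest values differed between genes. For the counts and the summed level given here, the shares over all features were not computed. Both are descriptive only and show no trait particular to these genes. Model 2 had the lowest value of all 9 libraries for 5 of the 10 genes (Ccnd1, Ccna2, Mki67, Birc5 and Top2a), and QDG 3 for 3 (Pcna, Cdk1 and Ccnb1). WT 3 had the highest value for 3 genes (Ccnd1, Rrm2 and Birc5), and QDG 2 and Model 3 for 2 each. Summed over the 7 scarce genes, the level was 1.59, 2.07 and 2.27 FPKM in WT, 1.38, 1.16 and 1.68 in Model, and 1.72, 2.53 and 1.75 in QDG, for replicates 1, 2 and 3. Model 3 lay above WT 1 in this sum, while all QDG libraries lay above all Model libraries. The margin was narrow, with QDG 1 at 1.72 FPKM and Model 3 at 1.68. In QDG 2 and in WT 3, 8 of the 10 genes lay above their own median over the libraries, and in Model 1 only 1 did. Other libraries were mixed. In WT 1 Ccnb1 was at its highest of the 9 libraries and Aurkb at its lowest, and in QDG 3 Mki67 and Top2a were above their geometric means while Cdk1 and Ccnb1 were at their lowest.

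**Figure D3:**
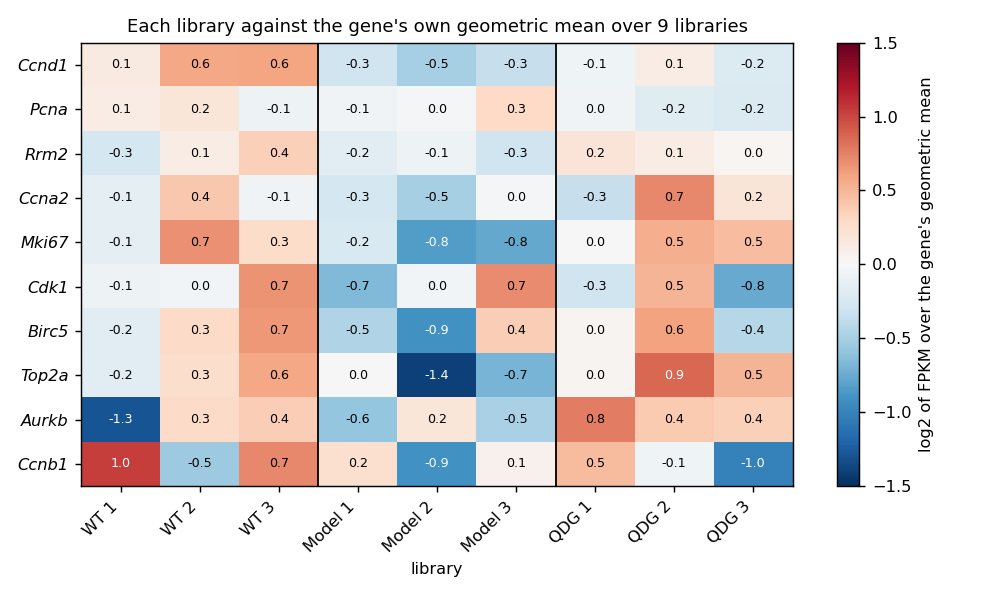
Log2 of the FPKM in each library (columns) over the geometric mean of that gene over the 9 libraries (rows), as colour and as a printed value. Model 2 is low for Top2a (−1.40), Ccnb1 (−0.91), Birc5 (−0.90) and Mki67 (−0.84), but not for Cdk1 or Aurkb. Ccnd1, Mki67, Rrm2 and Ccna2 are negative in all 3 Model libraries, Ccna2 by only −0.02 in Model 3. Mki67 (−0.13), Rrm2 (−0.26) and Ccna2 (−0.13) are also negative in WT 1. The share of all features with such a pattern was not computed.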

How the data were processed

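RNA was measured in 9 kidney samples, 3 each of WT, Model and QDG, grouped by their titles. The authors deposited 1 FPKM value per feature and library. The unit is not written in the files and was inferred from their steps. The sources used here name no aligner, counter, genome build or annotation, and the submitters' processing notes name limma. Reads were recovered within 0.001 read or a relative 1e-08. These reads are a reconstruction.

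Features averaging 1 FPKM or more were tested as log2(FPKM + 1) in 1 limma fit (version 3.58.1, R 4.3.3) with an intensity trend over all 9 libraries, two-sided, with Benjamini-Hochberg adjustment over all tested features within each comparison and a threshold of 0.05. Reads of all features were tested with limma voom after TMM scaling. The 10 genes, and the rule to name all of them, were chosen with earlier results of these data known. Further gene lists, marker lists and the search for genes of like pattern, planned by symbol, were not run, because the tables given pair no other identifier with a symbol. Alternatives were other pseudocounts, filters and scalings, fits to 2 groups, a replicate block, and each library left out.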

Additional observations from a re-analysis of the deposited data

How the results depend on the processing

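Tests on reads of all features, and the fits with a pseudocount of 0.1 FPKM and no filter, were chosen after seeing the data. Model against WT called 1 member, Ccnd1. It called 0 with only the 2 groups fitted, and 0 to 1 with 1 library left out (0 without WT 2 or Model 3). QDG against Model and QDG against WT called 0 members under every alternative run.

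With 1 library left out, some estimates changed sign. Pcna in Model against WT was −0.0028 and turned to 0.014 without WT 1, 0.050 without WT 2, 0.057 without Model 1 and 0.045 without Model 2, with −0.11 as the lowest value over the libraries left out (without Model 3). With reads of all features it was 0.0045, 0.038, 0.058 and 0.031 without the same libraries. Rrm2 in QDG against WT was 0.022 and turned to −0.084 without WT 1 and −0.0038 without QDG 1, with 0.12 as the highest value (without WT 3), or −0.13 and −0.024 with reads. Among the scarce genes, in fits of reads, Cdk1 went from −0.22 to 0.11 (without Model 1) in Model against WT and from −0.16 to 0.18 (without Model 3) in QDG against Model. Aurkb went from −0.11 to 0.18 (without WT 3) in Model against WT, and Ccnb1 from 0.02 to −0.32 (without Model 2) in QDG against Model. In QDG against WT the sign changed in 3 of 9 fits for Mki67, 2 of 9 for Birc5 and 1 of 9 for Ccna2.

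With the replicate number as a block, 1 member (Ccnd1, limma adjusted p = 0.0370) was called in Model against WT and 0 in the other comparisons. Same-numbered samples did not deviate together (correlations across features of −0.33 to −0.035 between WT and Model, −0.13 to 0.090 between WT and QDG, and −0.082 to 0.14 between Model and QDG), so the numbers were not taken to pair samples. The highest correlation between libraries of different groups was 0.43, for WT 2 and Model 1, which differ in number. Its source was not tested. The 7 scarce genes rest on 5 to 127 reads per library, with a scatter within groups of 1.63 to 7.17 times (variance over mean) where counting error gives about 1. Their log2 differences were larger on the scale of reads than on that of log2(FPKM + 1), whose pseudocount exceeds their levels.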
